A study of Mus musculus with 2 samples.

Results

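Secretory-poor Etv1+ cells were a small group of cells from mouse parotid glands that carried RNA of the transcription factor Etv1 but comparatively little secretory RNA. They numbered 62 of the 3378 cells kept in the control library and 65 of the 5286 cells kept in the irradiated (IR) library, 127 of 8664 in all. Etv1, an ETS-family transcription factor, lies on chromosome 12 (mm10, plus strand, chr12:38779380-38870484). A cell was kept when at least 200 genes were detected and at most 5% of its unique molecular identifiers (UMIs, counts of single RNA molecules) fell on mitochondrial genes. Secretory-poor Etv1+ cells held at least 2 Etv1 UMIs, none of the leukocyte gene Ptprc or the B cell gene Cd79a, and less than 15% of UMIs on Dcpp1, Dcpp2 and Dcpp3, secretory genes of intercalated duct cells. Less than 65% of their UMIs fell on 8 genes of saliva proteins, namely Amy1, Bpifa2, Smr3a, Pip, Car6, Chia1, Dnase1 and Cst10. Measured values thus chose these cells, so their Etv1 and secretory RNA levels are given below as a description only. Of the kept cells with at least 2 Etv1 UMIs, 214 in control and 170 in IR, 21 and 18 held Ptprc or Cd79a UMIs and 9 and 7 more were rich in Dcpp RNA. The remaining 122 control and 80 IR cells carried at least 65% of secretory UMIs and are called secretory-rich Etv1+ cells.

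Both libraries came from whole dissociated parotid glands of female wild-type (WT) C3H mice, sequenced with droplet single-cell chemistry. The control glands received no radiation. The IR glands received X-rays to the head and neck at 6 Gy a day for 5 days, 30 Gy in total, in mice of 6 to 10 weeks of age, and were collected 10 months later. Each condition was 1 library of 2 pooled mice, so no difference between control and IR has a replicate check and no test was made. Intervals below are exact 95% intervals that cover counting error only.

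Acinar cells of the parotid gland make watery saliva rich in enzymes such as amylase, and their RNA is dominated by transcripts of a few secreted proteins. Those proteins enter the endoplasmic reticulum, are packed into granules and leave the cell at its apical side, while ducts modify the fluid. Etv1 and its ETS relatives often act at the end of signalling from receptor tyrosine kinases through MAP kinases. In droplet data, RNA freed from burst acinar cells also enters droplets of other cells.

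Most secretory-poor cells were shallow. The lowest, median and highest UMI counts per cell were 569, 1368 and 82152 in control, and 511, 1531 and 77795 in IR. Genes detected ranged from 210 to 6457 in control, with a median of 532.5, and from 295 to 4482 in IR, with a median of 582. Secretory-rich cells had medians of 42567 and 30511.5 UMIs, so the 2 kinds of Etv1+ cells differed greatly in depth. In control, 40 of the 62 cells had under 2000 UMIs, 8 had 2000 to 5000, 6 had 5000 to 20000 and 8 had 20000 or more. In IR the corresponding numbers were 36, 10, 6 and 13. The shallow cells made up most of the group in both libraries, and a smaller set was as deep as secretory-rich cells.

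The share of UMIs on the 8 secretory genes ran from 0.498% to 64.9% in control, with a median of 42.5%, and from 1.98% to just under the limit in IR, with a median of 45.8%. In control, 12 cells lay between 60% and 65%, while 17 secretory-rich cells lay between 65% and 70%. In IR these numbers were 14 and 21. The lowest secretory-rich cells were at 66.7% and 65.3%, directly above the highest secretory-poor ones, so the limit cut through a continuous range. Etv1 UMIs per cell ran from 2 to 18 in control and from 2 to 26 in IR, both with a median of 3. Exactly 2 Etv1 UMIs were seen in 16 control and 25 IR cells.

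**Figure D1:**
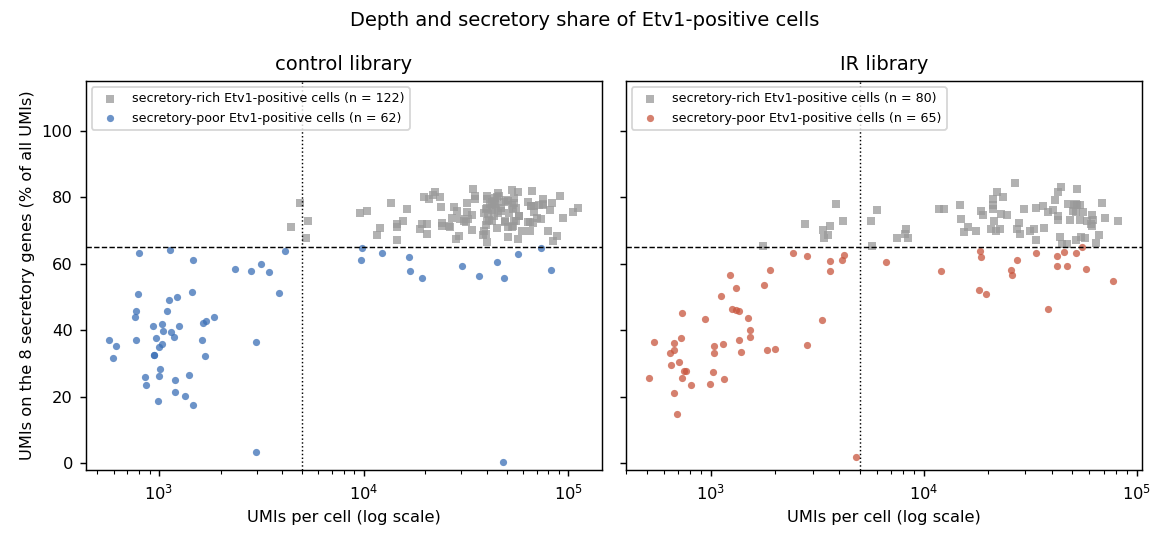
UMIs per cell (x axis, log scale) against the share of UMIs on the 8 secretory genes (y axis, %) for Etv1+ cells of each library. Dots are secretory-poor cells (62 control, 65 IR), squares secretory-rich cells (122 control, 80 IR), the dashed line is the 65% limit and the dotted line marks 5000 UMIs. Most dots lie left of the dotted line and most squares right of it.

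The secretory share fixed the group, but its makeup can be described. Bpifa2, a secreted lipid-binding protein, took 24.3% of all UMIs in control secretory-poor cells under 5000 UMIs and 37.0% in secretory-rich cells. Smr3a, a submaxillary gland androgen-regulated protein, took 5.88% and 12.4%, and Amy1, salivary amylase, took 3.73% and 6.66%. In IR, Bpifa2 took 26.7% and 42.2%, Smr3a 3.34% and 7.10%, and Amy1 3.89% and 6.03%. B cells, which do not make saliva proteins, had 10.2% and 9.63% of their UMIs on the 8 genes in control and IR, a measure of free RNA. All levels below are therefore counts per 1000000 UMIs left after removing the secretory, haemoglobin and mitochondrial genes and Gm42418, a gene that overlaps ribosomal RNA, and are called CPM without the abundant genes. This scale counts 49.4% of the UMIs of the shallow control cells and 17.5% of those of secretory-rich cells. In IR the shares were 47.2% and 18.6%.

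A set of 3 cells stood apart from the rest, with under 10% of secretory UMIs. A control cell of 48195 UMIs with 6 Etv1 UMIs held 3775 UMIs of Wfdc18, 1046 of the milk and saliva protein lactoferrin (Ltf), 424 of Krt18 and 132 of the epithelial gene Epcam. It alone gave 24.0% of the control cells' UMIs outside the abundant genes. A second control cell, of 2967 UMIs, held UMIs of Apoe (56), Scn7a (13) and Cdh19 (4), genes known from Schwann cells, 1 UMI of Krt8 and none of Epcam. An IR cell of 4807 UMIs held 232 UMIs of Apoe, 146 of the matrix proteoglycan gene Dcn and 6 of Col1a1, with no Krt8 and 1 Epcam UMI. The first of these was epithelial by its RNA, and the others held genes of glia or stroma. Counts of calls over the whole group are given below with and without these cells, and the shallow and deep sets leave them out.

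Below, shallow cells are the 47 control and 45 IR secretory-poor cells with under 5000 UMIs and at least 10% of secretory UMIs. Deep cells are the 13 and 19 with 5000 or more. The shallow cells summed to 33182 and 31590 UMIs outside the abundant genes, against 941938 and 489598 in secretory-rich cells. Depth and secretory share moved with every comparison of these sets, and their part in the results was not tested.

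Epithelial markers were present in the shallow cells. Krt8, an intermediate filament protein of simple epithelia on chromosome 15 (chr15:101996698-102004482, minus strand), had UMIs in 32 of 47 control and 32 of 45 IR shallow cells, with medians of 2 and 1 and maxima of 26 and 11. Its level was 5003 CPM without the abundant genes in control [4271–5824] and 3197 in IR [2604–3885]. Secretory-rich cells had 1915 and 2261, acinar cells without Etv1 1579 and 1937, and B cells 58.7 and 82.1. Krt8 was thus far above the free-RNA level of B cells in each epithelial class. High-Dcpp cells of the intercalated duct kind had 3377 and 6767, so a high Krt8 level was not particular to the secretory-poor cells. Epcam, an adhesion protein of epithelia, stood at 1055 and 1013 in shallow cells and 1002 and 1138 in secretory-rich cells.

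Nuclear RNA marked the shallow cells most. A list of 8 transcripts that stay in the nucleus, among them Malat1, Neat1, Kcnq1ot1 and Xist, took 13.9% of the UMIs outside the abundant genes in control shallow cells [13.5–14.3] and 9.29% in IR [8.95–9.63]. Deep cells had 2.38% and 2.19%, and secretory-rich cells 2.40% and 1.92%. Acinar cells without Etv1 of the same depth class had 0.247% and 0.413%, and B cells 3.09% and 2.35%. The acinar cells under 5000 UMIs, which were chosen for secretory RNA and no Etv1 and so differ in more than depth, had the lowest share of the classes named here. Cells with a single Etv1 UMI, 36 in control and 57 in IR with median depths of 979 and 1421 UMIs, had 3.16% and 2.49%. Their share on keratins of simple epithelium was 0.164% and 0.281%, against 1.12% and 0.912% in shallow cells. They thus differed in more than Etv1. The per-cell median of the nuclear share in secretory-poor cells by depth was 11.7% under 2000 UMIs, 13.7% at 2000 to 5000, 4.85% at 5000 to 20000 and 1.53% at 20000 or more in control. In IR these medians were 8.96%, 7.57%, 3.14% and 1.81%. Within the group the nuclear share was thus lower at 5000 UMIs or more than below it in both libraries.

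Ribosomal protein genes, which encode the protein part of the translation machinery, ran the other way. They took 6.26% and 7.67% of the UMIs outside the abundant genes in shallow cells, against 21.6% and 17.8% in deep cells and 19.6% and 17.6% in secretory-rich cells. Acinar cells without Etv1 under 5000 UMIs had 21.3% and 19.4%, and B cells 27.5% and 22.9%. Shallow secretory-poor cells were the lowest of these classes. The per-cell medians of the mitochondrial share over all secretory-poor cells were 0.640% and 1.56%, against 0.939% and 1.26% in secretory-rich cells and 2.72% and 3.15% in B cells. This share was below that of secretory-rich cells in control and above it in IR. The limit on mitochondrial UMIs is part of the rule, so the share is capped in every class, and 50 control and 46 IR barcodes failed only that limit.

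**Figure D2:**
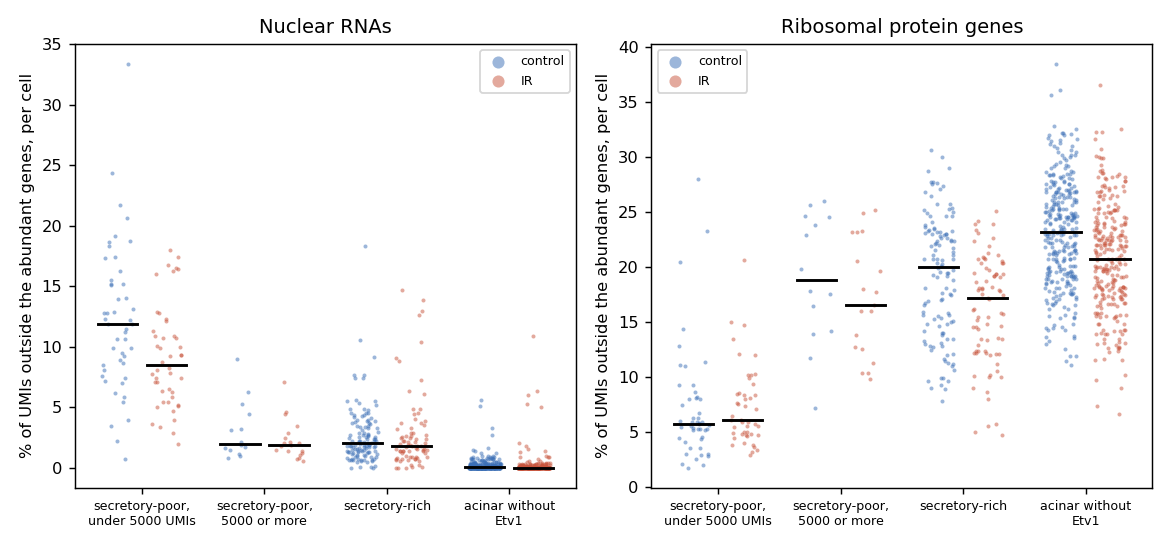
Share of each cell's UMIs outside the abundant genes (y axis, %) on nuclear RNAs (left) and ribosomal protein genes (right), by class and library; points are cells and black bars medians. Here the class under 5000 UMIs also holds the cells with under 10% of secretory UMIs. Its nuclear medians were 11.9% in control and 8.48% in IR, and its ribosomal medians 5.79% and 6.12%, while secretory-rich cells lay at 2.01% and 1.81%, and at 20.02% and 17.2%.

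Gene by gene, the summed counts of the shallow cells were divided by those of the secretory-rich cells of the same library, over genes with at least 50 UMIs in both sums together. A gene was called higher at a ratio of 2 or more and lower at 0.5 or less. In control, 537 of 2908 genes were called higher (18.5%) and 810 lower (27.9%). In IR, 226 of 1580 were called higher (14.3%) and 526 lower (33.3%). A gene at the 50-UMI limit and at a ratio of 1 would hold only 1.70 UMIs in the control shallow cells and 3.03 in IR, so single calls of low genes are weak. The counting interval lay off 1 for 385 and 189 of the higher calls and for 348 and 292 of the lower ones. Of the genes measured in both libraries, 1576, the 2 libraries called 150 higher together, which was 69.8% of the control and 66.7% of the IR calls, and 362 lower together, 56.7% and 69.1%. Opposite calls were made for 6 and 2 genes. These shared parts were smaller for the deep cells and for the whole group, as given below. The comparisons use different cells in each library, but both sets of cells were chosen by the same rule.

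The split of calls depended on the scale. On CPM over all genes, where the secretory UMIs count, the log2 ratios shifted by 1.498 in control and 1.34 in IR, and 95.5% and 89.7% of the called genes were higher in place of 39.9% and 30.1%. With trimmed-mean (TMM) factors they shifted by -1.05 and -0.99, and the higher share was 7.93% and 6.01%. Ratios are therefore best read against the ratio of the median gene, which was 0.957 in control and 0.680 in IR. Lists are described below by their counts and medians beside that value, with no test.

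Nuclear RNAs were higher in 5 of 5 measured members in each library, against 18.5% and 14.3% of all genes. Their median ratio was 8.14 in control and 5.86 in IR. The list's sum was higher under each of the 3 scales (5.77, 16.3 and 2.80 in control, 4.83, 12.2 and 2.43 in IR). Malat1 is a long noncoding RNA of nuclear speckles, the bodies that store splicing factors (chr19:5795690-5802672, minus strand). Its UMIs per shallow cell were 2, 57 and 574 (lowest, median, highest) in control and 4, 37 and 191 in IR, so every shallow cell held it. It was 5.57 times the secretory-rich level in control [5.38–5.77] and 4.50 times in IR [4.30–4.72]. Neat1, the noncoding RNA on which paraspeckles form (chr19:5824708-5845478, minus strand), was seen in 44 of 47 and 41 of 45 shallow cells. Its ratios were 8.54 [7.54–9.65] and 7.36 [6.40–8.44], from levels of 10186 and 9782 CPM without the abundant genes. Kcnq1ot1, an antisense RNA of an imprinted domain, had ratios of 8.14 [6.25–10.5] and 5.86 [4.01–8.43]. Gm26917, an annotated noncoding gene that lies beside Gm42418 and the ribosomal RNA gene Rn18s-rs5 on chromosome 17, had 9.98 and 10.3. Without it the list took 13.4% and 9.01% of UMIs in shallow cells and had sum ratios of 5.70 and 4.75. Whether counting used strand is not given in the sources used here, so the value of Kcnq1ot1 may hold reads of its sense partner.

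The 20 highest ratios, a list drawn up after the values were seen, held genes of several functions, and no function was counted or tested for among them. Srsf11, a serine-arginine splicing protein, had 35 UMIs in control shallow cells and 36 in IR, at ratios of 6.33 [4.26–9.18] and 6.89 [4.52–10.3]. Luc7l2, a U1 snRNP-associated protein, had 5.02 and 6.15, and Rsrp1, an arginine-serine-rich protein, 5.36 and 6.36. Cyclins L1 and L2 (Ccnl1 and Ccnl2), partners of kinases that act on transcription and splicing, had 5.04 and 6.60, and 7.63 and 6.68. Clk1, a kinase of serine-arginine proteins, had 5.58 and 5.42. Nabp1, a single-strand DNA-binding protein, had 10.7 and 5.90, and Wsb1, a substrate receptor of a ubiquitin ligase, 5.59 and 7.43. On this scale each of these genes was at least 5 times the secretory-rich level in both libraries.

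Etv1 belongs to the ETS factors, many of which bind sites that hold the motif CCGGAA, read as TTCCGG on the other strand. The promoters of the named genes were searched for this motif on both strands. RefSeq windows of GRCm38.p6 were used, from 250 bases before to 50 after each start. Other ETS sites were not searched for. The motif was found in 4 of the 13 windows available among the 20 highest genes (30.8%) and in 0 of 9 among the 12 lowest, against 4112 of 27025 windows of all genes (15.2%). In the lists of the whole group against secretory-rich cells it was found in 2 of 7 windows among the 12 highest genes (28.6%) and in 2 of 6 among the 8 lowest (33.3%), so the difference between high and low genes was not seen there. With so few windows these shares are a description, and a match is not a bound site. For each of the 4 windows the match farthest from the start site is shown 5′ to 3′ on the strand of the gene, with the motif in capitals and the 10 bases at each side of it in lower case, to show how the 6 letters sit in genes of high ratio:
Ccnl2: caggcaggagTTCCGGttcgggccag
Srsf11: aaagctcacaCCGGAAgccccgacca
Nabp1: ctacagaaacCCGGAAgacgtggagc
Wsb1: actttgccctTTCCGGttcggtcacg
The Ccnl2 stretch lies at chr4:155812293-155812318 on the plus strand, and the others on the minus strand, that of Srsf11 at chr3:158036695-158036720, that of Nabp1 at chr1:51478607-51478632 and that of Wsb1 at chr11:79254875-79254900. The Ccnl2 window holds a second match, TTCCGG, 126 bases before its start site, and the other windows hold a single match each. The Srsf11 match begins 104 bases before the start site and the Wsb1 match 195.

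Further markers and a set of signalling genes followed. Col7a1, the collagen of anchoring fibrils that tie epithelia to their basement membrane (chr9:108953586-108984875, plus strand), had at most 3 UMIs per shallow cell, in 19 of 47 control and 12 of 45 IR cells. Its level was 904 CPM without the abundant genes [610–1291] in control and 507 [290–823] in IR, against 104 and 89.9 in secretory-rich cells, ratios of 8.69 [5.57–13.2] and 5.64 [2.97–10.2]. Acinar cells without Etv1 had 26.3 and 16.8 and B cells 3.37 and 3.69, so among these classes the shallow cells were the highest, also with TMM factors (ratios 4.21 and 2.84). Chka, choline kinase, the first enzyme of phosphatidylcholine synthesis (chr19:3851773-3894369, plus strand), had ratios of 8.87 [7.58–10.4] and 5.32 [4.36–6.45]. A single control cell held 61 of its 216 UMIs, and the ratio was 6.54 without it. Krt8 was 2.61 times the secretory-rich level in control [2.21–3.06] and 1.41 times in IR [1.14–1.73], where TMM factors turned it to 0.713. Its partner Krt18 had 2.22 and 1.65, or 1.08 and 0.832 with TMM factors, so the direction of both keratins in IR depended on the scale.

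Receptors were sparse. Epha5, an ephrin receptor (chr5:84054761-84417382, minus strand), had 6 UMIs in the control shallow cells and 5 in IR, with ratios of 2.62 [0.928–6.02] and 2.04 [0.626–5.19], so neither interval left 1. Erbb3, a receptor of neuregulins, had 7 and 10 UMIs and ratios of 2.18 [0.854–4.68] and 4.56 [2.01–9.44]. Ghr, the growth hormone receptor, had 5 and 4 UMIs, and Ddr1, a collagen receptor, 7 and 1. At these counts a difference from secretory-rich cells was not detectable for Epha5, Ghr or Ddr1. Errfi1, a feedback inhibitor of the EGF receptor family, had 62 and 35 UMIs and ratios of 5.43 [4.07–7.15] and 2.52 [1.71–3.62]. Of 22 feedback genes of MAPK signalling, 6 of 9 measured were higher in control (median 2.47) and 2 of 8 in IR (median 1.46), with none lower, against 18.5% and 14.3% of all genes called higher. With TMM factors these medians were 1.20 and 0.733, below 1 in IR.

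Matrix attachment genes had medians of 2.30 in control and 4.48 in IR, with 3 of 6 and 3 of 3 measured members higher. Thbs1, a matricellular protein induced by growth factors, had 3.44 [2.40–4.803] and 4.48 [3.43–5.78], and the laminin-binding integrin subunit Itga6 had 2.95 and 2.40. Immediate early genes, switched on within minutes of a stimulus and of tissue dissociation, took 3.06% and 2.88% of UMIs outside the abundant genes in shallow cells and 1.53% and 1.40% in secretory-rich cells. Of these, 10 of 17 were higher and 1 lower in control and 10 of 15 higher in IR. Jun, a subunit of AP-1, had 2.14 [1.82–2.49] and 2.83 [2.35–3.39], and its partner Fos 2.62 and 2.53. With TMM factors the sum of the list fell to 0.967 in control and 1.04 in IR, so its direction depended on the scale in control. Heat shock genes were higher in 4 of 12 and 5 of 11, with 1 lower in IR and medians of 1.68 and 1.55. Over all genes 18.5% and 14.3% were called higher and 27.9% and 33.3% lower. Among transcription factors of salivary epithelium, 5 of 17 and 5 of 13 were higher and 2 and 1 lower, with the homeobox gene Meis2 at 2.65 [1.80–3.80] and 3.44 [2.43–4.795] and the ETS factor Elf3 at 2.65 and 4.39. With TMM factors the medians of the heat shock list (0.813 and 0.781) and of the transcription factors (0.602 and 0.625, from 1.24 in each library) lay below 1, whereas attachment genes stayed above it at 1.11 and 2.26.

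**Figure D3:**
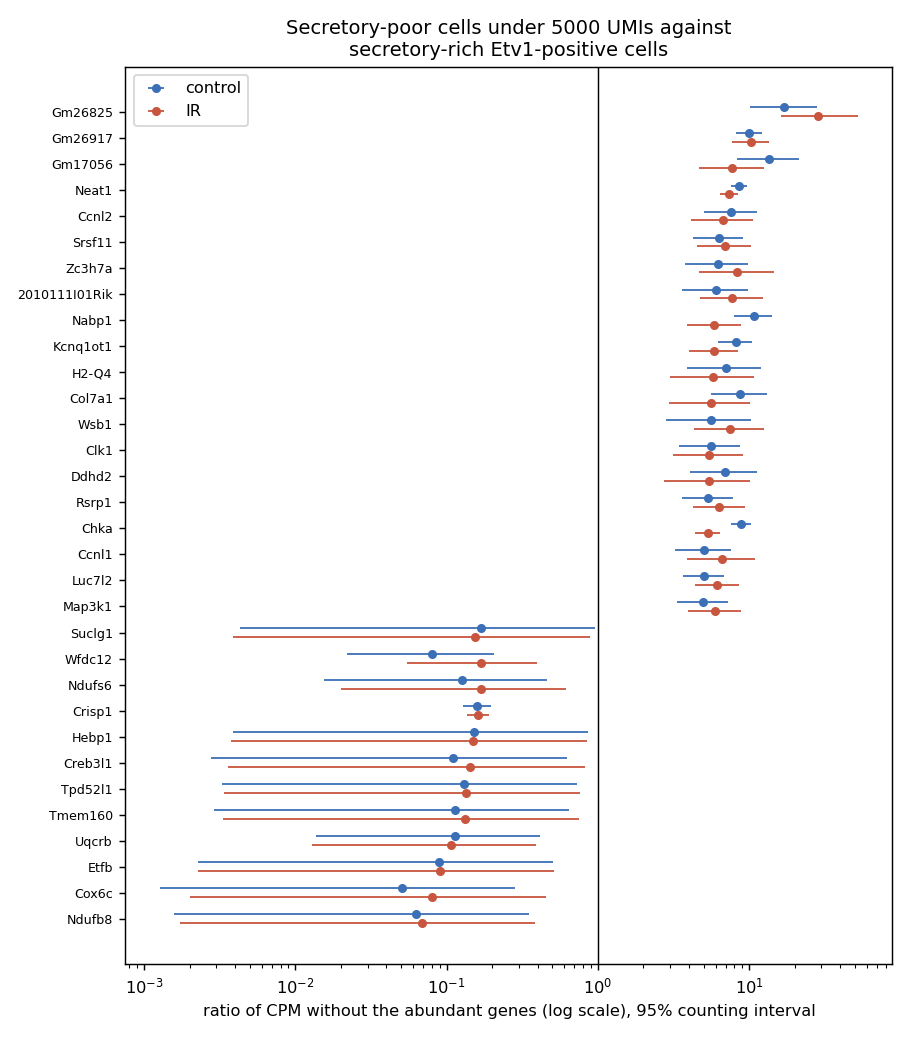
Ratio of CPM without the abundant genes (x axis, log scale) in shallow secretory-poor cells against secretory-rich cells for the 20 highest and 12 lowest genes, ordered by the library nearer to 1; dots are ratios, bars 95% counting intervals, blue control and red IR. Gm26825 led in IR at 28.7, Neat1 lay at 8.54 and 7.36, and most of the lowest genes had wide intervals, as they rest on few UMIs, with Crisp1 as an exception.

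Genes of protein export were among those of low ratio. Of 32 genes of the secretory pathway of the endoplasmic reticulum, 17 of 31 measured were lower in control and 15 of 29 in IR and none higher, with medians of 0.475 and 0.495. Over all genes 27.9% and 33.3% were lower, with medians of 0.957 and 0.680. Ssr4, of the complex beside the translocation channel, had 0.231 [0.139–0.362] and 0.373 [0.249–0.538], and Sec61b, a subunit of the channel itself, 0.322 and 0.209. Hspa5 (BiP), the chaperone of its lumen, had 1.29 [0.892–1.81] and 0.883, and the unfolded-protein factor Xbp1 0.963 and 1.03, so not every gene of the list was low. On CPM over all genes, the sum of the list was 1.32 and 1.23, above 1. Creb3l1, a membrane-bound transcription factor of secretory cells, had 1 UMI in each library and ratios of 0.110 and 0.143.

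Of 372 ribosomal protein genes and pseudogenes, 75 of 88 measured were lower and 1 higher in control and 54 of 77 lower in IR, with medians of 0.330 and 0.455. Among all genes, 27.9% and 33.3% were called lower and 18.5% and 14.3% higher, with medians of 0.957 and 0.680. On CPM over all genes their sum was 0.902 in control and 1.10 in IR, where the direction turned. Of the 12 lowest ratios, a list drawn up after the values were seen, Cox6c and Ndufb8, subunits of cytochrome oxidase and of complex I, each had 1 UMI in each library, at ratios of 0.0506 and 0.0803, and 0.0628 and 0.0683. The acinar genes outside the rule were lower in 7 of 10 measured genes in each library, with medians of 0.360 and 0.365. The all-gene shares and medians given above apply here too. Crisp1, a secreted cysteine-rich protein, had 0.160 [0.128–0.197] and 0.162 [0.136–0.192], and Ggh, gamma-glutamyl hydrolase, 0.205 and 0.201. Cldn10, a claudin of paracellular ion channels, had 1 and 3 UMIs and ratios of 0.0797 and 0.193, while Epcam was at 1.05 and 0.890. On CPM over all genes the median of these acinar genes was 1.02 in control and 0.925 in IR, so their low ratio depended on the scale in control. They share free RNA and cell type with the 8 genes that chose the cells.

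**Figure D4:**
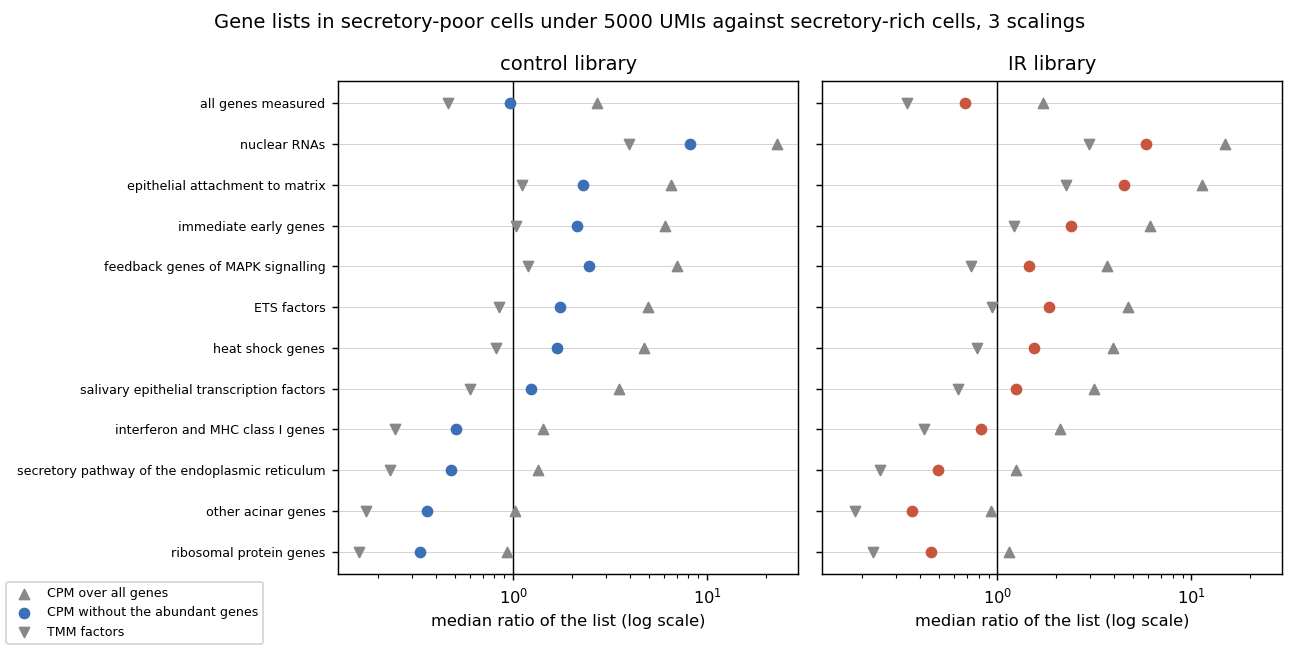
Median ratio of each gene list (x axis, log scale) in shallow secretory-poor cells against secretory-rich cells, control left and IR right, under 3 scalings; the top line is the median of all genes measured. The scaling moves every list together: the all-gene median was 0.957, 2.70 and 0.464 in control and 0.680, 1.72 and 0.343 in IR (CPM without the abundant genes, CPM over all genes, TMM), while nuclear RNAs stayed to the right of it and ribosomal protein genes to the left.

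Acinar cells without Etv1 and with under 5000 UMIs, 141 in control and 111 in IR, gave a comparison nearer in depth, with medians of 2927 and 3152 UMIs against 1136 and 1146 in the shallow cells. It was added after the data were seen. Over 256 genes in control, 35 were called higher (13.7%) and 171 lower (66.8%), and over 234 in IR, 27 (11.5%) and 144 (61.5%), with medians of 0.356 and 0.429. On CPM over all genes the higher and lower calls became 75 and 8 in control and 62 and 3 in IR. Malat1 was 58.7 times the acinar level in control [48.9–71.1] and 21.4 times in IR [18.5–24.99], from 119 and 188 UMIs in the acinar cells. Neat1 had ratios of 75.8 and 33.3, Luc7l2 22.4 in each library, and Thbs1 23.3 and 11.2. Ratios of this size rest on few acinar UMIs and are rough. Thbs1 in control, with 39 UMIs in the shallow cells, fell under the minimum of 50 UMIs over both sums. Krt8 had 2.66 [2.08–3.41] and 1.42 [1.08–1.86]. The ribosomal genes were lower in 68 of 69 and 54 of 69. Cox6c and Ndufb8 had ratios of 0.0485 and 0.0907 and of 0.0641 and 0.0539. These rest on 1 UMI each in the shallow cells and fell under the minimum of 50 UMIs, so they are not calls. The low ribosomal ratio depended on the scale, since most genes were lower on this one, and on CPM over all genes the ribosomal sum was 0.985 in control and 1.18 in IR. Malat1, Neat1 and Krt8 stayed above 1 under each of the 3 scales. Thbs1 also stayed above 1, and Cox6c and Ndufb8 below 1. With Cox6c, Ndufb8 and control Thbs1 under the UMI minimum, their values do not show stability across scales.

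Each cell was also thinned to 300 UMIs outside the abundant genes, which left 45 shallow cells in each library and removed 2 in control. Krt8 was then seen in 51.1% [35.8–66.3] of control and 53.3% of IR shallow cells, 28.7% and 47.5% of secretory-rich cells and 1.85% and 2.89% of B cells, the free-RNA level. Col7a1 was seen in 22.2% [11.2–37.1] and 17.8% [8.0–32.1] of shallow cells, 2.46% and 6.25% of secretory-rich cells, 0.725% and 0.382% of acinar cells and no B cell. Chka was seen in 46.7% of the shallow cells of each library, against 23.0% and 25%, and Neat1 in 80.0% and 84.4%, against 30.3% and 28.8%. Thinning left the order of shallow over secretory-rich cells in place for these genes, though for Krt8 in IR the shares were close. Unthinned, Krt8 was seen in 68.1% and 71.1% of shallow cells and 10.1% and 13.4% of B cells, whose median depths were 2562 and 2219 UMIs.

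The deep cells were much closer to the secretory-rich cells. In control, 53 of 3064 genes were called higher (1.73%) and 259 lower (8.45%), and in IR 40 of 2071 (1.93%) and 36 (1.74%). The counting interval lay off 1 for 47 and 40 of the higher calls and for 121 and 35 of the lower ones. In control, 5 of the lower calls had 0 UMIs in the deep cells. The higher share of all deep-cell calls was 16.99% in control and 52.6% in IR, but 74.4% and 98.9% on CPM over all genes and 8.99% and 37.8% with TMM factors. Malat1 stood at 1.0 [0.958–1.04] and 1.17 [1.12–1.21], Neat1 at 0.984 and 1.06, Col7a1 at 0.848 [0.395–1.63] and 0.742, and Chka at 1.08 and 1.14. None of the 5 measured nuclear RNAs was called in either library, and of the genes of the endoplasmic reticulum 1 was called higher in control and none in IR. In the summed counts, the high nuclear share and low ribosomal share thus belonged to the shallow cells. Such sums give more weight to the deep cells with most UMIs. Per cell, deep cells of 5000 to 20000 UMIs had nuclear medians above those of secretory-rich cells in both libraries. Krt8 stood at 1.35 [1.19–1.53] in control and 1.25 [1.12–1.38] in IR, and at 0.922 and 1.15 without the cell that held most of it. Epha5 had 18 UMIs in 9 of the 13 control deep cells at 2.30 [1.29–3.93], against 10 UMIs in 7 of the 19 IR deep cells at 0.661 [0.293–1.35].

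Few calls of the deep cells were shared by the libraries. Of 2052 genes measured in both, 6 were called higher together, 21.4% of the control and 17.1% of the IR calls. Together 4 were called lower, 3.31% and 11.8%, and opposite calls were made for 5 and 1 genes. A few genes stood out in deep cells, and those named next were picked among genes of the same direction in both libraries. Wfdc18, a small protease-inhibitor-like protein, had 232 UMIs at a ratio of 41.9 [30.5–58.9] in control and 256 at 14.9 [10.8–21.2] in IR, and without the cell that held most of it the ratios were 29.0 and 6.60. Tmem176a, a membrane protein, had 5.77 and 5.96, the chemokine Cxcl1 2.18 and 3.15, and Cyr61, a matricellular protein, 2.17 and 2.82. Wfdc12, another protein of the same family as Wfdc18, was lower at 0.470 and 0.365. Of 2184 genes measured in both libraries over the whole group, 20 were called higher together, 21.1% of the control and 33.3% of the IR calls. Together 14 were called lower, 9.79% and 31.1%. Over the whole group, 179 of 3322 control genes were called higher (5.39%) and 259 lower (7.8%), and 68 of 2209 (3.08%) and 47 (2.13%) in IR. On CPM over all genes these counts became 1261 and 24, and 601 and 3, and with TMM factors 130 and 396, and 46 and 106. Without the cells under 10% of secretory UMIs they were 140 and 206 in control and 65 and 40 in IR. Over the whole group Wfdc18 had 418 in control, but 32.5 without the single cell described above, and 13.05 in IR. Whole-group ratios mix shallow and deep cells and are led by the deep ones, which hold most of the UMIs.

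Markers of other cell types were counted in each set. Smooth-muscle and myoepithelial markers gave 240 UMIs in the IR deep cells, 13 of 14 genes, with 62 of Acta2 and none of Oxtr, and 112 of the 240 in 1 cell. They gave 3 UMIs in control deep cells, and 2 and 0 in shallow cells. Stromal markers gave 30 UMIs in IR deep cells, 26 of them Dcn, against 2 in control, with the collagens Col1a1, Col1a2 and Col3a1 at 0 in both depth sets. Myeloid markers gave 53 and 5 UMIs in IR and control deep cells and 18 and 2 in shallow cells, 14 of the 18 in 1 cell, and T and NK markers 14 and 2 in shallow cells, 13 of the 14 in 1 cell. Endothelial markers were at 0 in shallow cells. B and plasma markers gave 11 and 9 UMIs in shallow cells and 4 and 29 in deep cells, control first, 15 of the 29 in 1 cell. Intercalated duct markers gave 121 and 123 UMIs in shallow and 890 and 1400 in deep cells, control first, and in deep cells 2 of 4 and 1 of 4 measured markers were called higher than in secretory-rich cells, against 1.73% and 1.93% of all genes. Red cell genes gave 159 and 85 UMIs in shallow cells. Their CPM without the abundant genes was 4791.8 and 2690.7 there, against 1173.1 and 271.7 in secretory-rich cells. B and plasma markers stood at 331.5 and 284.9 in shallow cells, against 46.7 and 79.7. Acinar cells without Etv1 under 5000 UMIs had more of both, with red cell genes at 7219.5 and 4223.8 and B and plasma markers at 755.5 and 1891.5. In CPM without the abundant genes, myoepithelial markers stood at 1230.4 in IR deep cells against 126.6 in IR secretory-rich cells, stromal markers at 153.8 against 30.6 and myeloid markers at 271.7 against 93.96. For B and plasma markers these values were 148.7 against 79.7 in IR and 35.3 against 46.7 in control. Of these UMIs in IR deep cells, 13 of the 30 stromal and 17 of the 53 myeloid ones lay in 1 cell each. The part of this RNA in the results was not tested. No secretory-poor cell was called a doublet, but the caller marked only 0.947% of control and 0.0189% of IR cells, and so did not work in IR. The libraries shared 12 deposited barcodes, of which 3 were kept and 1 was a secretory-poor cell.

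The IR library was then set against control within secretory-poor cells, 1 library each. Secretory-poor cells made up 1.84% of kept control cells [1.41–2.35] and 1.23% of kept IR cells [0.950–1.56]. These intervals overlap, but overlap is not a test of the difference, and none was made with 1 library per condition. Secretory-rich cells, at 3.61% and 1.51%, also had the smaller share in IR. Over all secretory-poor cells 49 of 1282 genes were called higher in IR (3.82%) and 62 lower (4.84%). The cells with under 10% of secretory UMIs carried much of this, and without them 38 of 1091 were higher (3.48%) and 22 lower (2.02%). The higher share of calls was 44.1% with these cells and 63.3% without them, and on CPM over all genes 31.0% and 80.6%. Cyp2f2, a cytochrome P450, stood at 0.0269 with these cells and 0.646 [0.211–1.98] without them, Wfdc18 at 0.0561 and 0.723, and Dcn at 29.2 and 3.36. Apoe, an apolipoprotein, stood at 5.66 with them and 34.7 without, from 161 and 3 UMIs. These 4 ratios thus turned on single cells, and the values that follow leave these cells out.

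Of the genes that p53 switches on after DNA damage, Cdkn1a and Ccng1 were called higher in IR secretory-poor cells. Cdkn1a, the p21 inhibitor of cyclin-dependent kinases (chr17:29090976-29100727, plus strand), had 52 UMIs in IR and 3 in control, a ratio of 11.2 [3.63–56.1], and 6.96 without the IR cell that held 21. It was seen in 9 of 45 IR and 1 of 47 control shallow cells, and in 10 of 19 and 2 of 13 deep cells, so both depth sets showed the direction. In the shallow cells alone, 8 of 141 genes were called higher (5.67%) and 3 lower (2.13%). Ccng1, cyclin G1 (chr11:40748552-40755311, minus strand), had 53 and 8 UMIs and a ratio of 4.28 [2.02–10.4]. Its shallow cells gave 6 and 3 of these UMIs and its deep cells 47 and 5, so the call rested mostly on deep cells. Phlda3, an inhibitor of Akt, had 24 UMIs in 9 IR deep cells and none in control. With the control put at 3 counts over the group its ratio was 5.17, a value without counting error. Phlda3 fell under the minimum of 50 UMIs over both sums, so it is not a call. Bax, a mediator of apoptosis, stood at 1.87 [0.888–4.31], Trp53inp1 at 1.81 [0.983–3.51] and Mdm2, the ligase of p53, at 1.47, and at 0.551 for Mdm2 without its top cell. Of the 20 genes of the list, 2 of 4 measured were higher and none lower, with a median of 3.05 against 1.04 for all genes, of which 3.48% were called higher and 2.02% lower. In secretory-rich cells Cdkn1a had 2.28 [1.39–3.78] and Ccng1 1.80 [1.30–2.50], in acinar cells without Etv1 1.83 and 1.56, and in B cells 0.698 and 1.03. The difference between these classes was not tested.

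**Figure D5:**
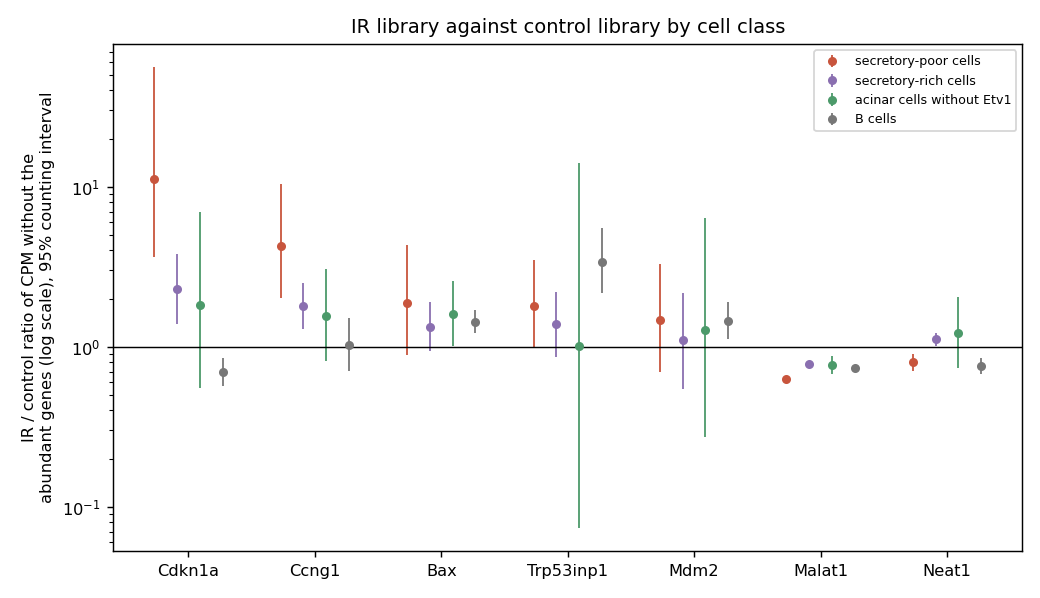
IR to control ratio of CPM without the abundant genes (y axis, log scale) of 7 genes in 4 cell classes; dots are ratios of summed counts, 1 library per condition, and bars 95% counting intervals. Secretory-poor cells leave out those with under 10% of secretory UMIs. Cdkn1a lay at 11.2 in secretory-poor and 2.28 in secretory-rich cells, with overlapping intervals and no test of the difference. Malat1 lay under 1 in all 4 classes.

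Other genes of high IR ratio rested on fewer cells. Csn3, kappa-casein, had 168 and 8 UMIs and a ratio of 13.6 [6.73–31.9], but 166 of the 168 came from 5 of 19 deep cells, 71 from 1. Klf2, a Krüppel-like transcription factor, had 7.97 [3.49–22.4], but 34 of its 74 IR UMIs lay in 1 deep cell and the ratio was 4.50 without it. It had 19 UMIs in 7 of 45 IR shallow cells against none in control. Hist1h1c, a linker histone, had 2.69 [1.61–4.70], near its ratio in secretory-rich cells of 2.51 [2.04–3.11]. Genes of low ratio included Lars2, mitochondrial leucyl-tRNA synthetase, at 0.289 [0.187–0.439], with 0.215 in secretory-rich cells and 0.435 in B cells. A low Lars2 ratio was therefore shared by the classes compared. Hes1, a target of Notch, had 35 and 54 UMIs and 0.419. The median mitochondrial share was higher in IR secretory-poor cells, as given above, and its part in these differences was not tested.

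None of the marker genes Malat1, Krt8, Col7a1 and Epha5 had an interval above 1 in IR. Malat1 had 6073 UMIs in IR and 6281 in control and a ratio of 0.625 [0.603–0.647], with 0.630 in shallow and 0.909 in deep cells, and 0.780, 0.765 and 0.737 in secretory-rich, acinar and B cells. Krt8 had 0.916 [0.812–1.04], but 0.639 [0.494–0.823] in shallow and 1.09 in deep cells. Col7a1 had 29 and 40 UMIs and 0.468 [0.280–0.775], but 0.560 [0.285–1.06] in shallow and 0.755 [0.306–1.92] in deep cells. Epha5 had 15 and 24 UMIs and 0.404 [0.197–0.802], with 0.875 [0.211–3.44] in shallow and 0.323 [0.133–0.737] in deep cells. Since IR had more of its UMIs in deep cells than control, pooled ratios of genes that differ with depth also reflect that mix. The nuclear list as a whole had a sum ratio of 0.638, with 0.670 in shallow and 0.919 in deep cells, against 0.802 in secretory-rich and 0.761 in B cells. Hspa5 was at 1.69 [1.35–2.13], and 2 of 27 genes of the endoplasmic reticulum were called higher and none lower, with a median of 1.23. Immediate early genes had 1 of 15 called higher and a sum ratio of 0.911. Over all genes 3.48% were called higher and 2.02% lower, and with 1 or 2 calls these lists show no more than that. The all-gene log2 shift of this comparison was 0.15 on CPM over all genes and 0.05 with TMM factors, and Krt8 crossed to 1.01 on the former.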

How the data were processed

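Cells of control and IR parotid glands were measured by droplet single-cell RNA-seq, 1 library of 2 pooled mice each. The authors deposited raw UMI counts per gene and barcode, made per the submitters' processing notes with Cell Ranger 3.0.1 on mm10, with Seurat 3 also named. The deposited tables held 5550 and 7793 barcodes and 22707876 and 23890757 UMIs. Barcodes passing 200 genes and 5% mitochondrial UMIs were kept, and cells were classed by UMI rules. Beside the Etv1+ classes, acinar cells without Etv1 had no Etv1 UMI and at least 65% secretory UMIs, high-Dcpp cells at least 15% Dcpp UMIs, both without Ptprc and Cd79a, and B cells at least 2 Cd79a UMIs and no Cd3e. Of barcodes meeting the rest of the rule, 52 and 47 were left out. Doublets were called with Scrublet (scanpy 1.11.5) and not removed. Members and gene lists were chosen with earlier results of these data known.

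UMIs were summed per class and library, and ratios were taken of CPM without the abundant genes, with exact binomial intervals (scipy 1.17.1, 95%). A count of 0 was put at a floor of 3 counts to give a ratio. Shares of cells have Clopper-Pearson intervals, while CPM levels and shares of UMIs have exact Poisson intervals. Intervals cover counting error only. Genes needed 50 UMIs over both sums and were called at ratios of 2 and 0.5. TMM factors (edgeR 4.0.16) were computed on the 2 sums compared. With 1 library per condition no test was made. Coordinates are from GENCODE M21 (GRCm38). The scripts were tested on simulated data.

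Named genes were the marker and rule genes, receptors the study names, and the members of each list with most UMIs. To these were added the 12 highest and 8 lowest genes of members against secretory-rich cells, ranked by the smaller log2 ratio of the 2 libraries, and the 8 highest and 8 lowest of IR against control. The higher genes needed UMIs in at least 5% of members. The 20 highest and 12 lowest genes of shallow cells, and all splits at 5000 UMIs or 10% secretory share, were chosen after the data were seen. Alternatives were other scalings, count minimums, member limits, a mean over cells, and leaving out single cells.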

Additional observations from a re-analysis of the deposited data

Results flagged for a closer look

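Gm21718, a predicted gene, had ratios past 2-fold in opposite directions in the 2 libraries when secretory-poor cells were set against secretory-rich cells, but the control direction rested on 1 cell. In control it had 44 UMIs in secretory-poor and 103 in secretory-rich cells, a ratio of 2.05 [1.41–2.94], with UMIs in 9 secretory-poor cells and 33 of the 44 in 1 cell. Without that cell the control ratio was 0.674 [0.326–1.26], and without the cells under 10% of secretory UMIs it was 0.687. In IR it had 16 and 97 UMIs, a ratio of 0.349 [0.192–0.596], with UMIs in 11 secretory-poor cells and at most 5 in any of them. Without the top cell it was 0.264, and without the cell under 10% of secretory UMIs 0.356. The difference between the libraries was not tested, as each is 1 library.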

How the results depend on the processing

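No paired analysis was possible because each condition was 1 library. The number of secretory-poor cells was 62 in control and 65 in IR, and became 37 and 36 at a secretory limit of 50%, 112 and 111 without the mitochondrial limit, 33 and 40 at 500 genes or more, and 40 in IR at 3 Etv1 UMIs. Genes called higher and lower in secretory-poor against secretory-rich control cells (179 and 259) became 376 and 870 at a secretory limit of 50%, 1261 and 24 on CPM over all genes, 518 and 618 at a minimum of 20 UMIs, 42 and 50 at 200, 583 and 917 with a mean over cells, 542 and 828 for cells under 5000 UMIs, and 35 and 171 for those against acinar cells of that depth. Lower calls were 169 with only the rule's genes left out and 396 with TMM factors. In IR, 68 and 47 became 189 and 344, 601 and 3, 319 and 232, 5 and 3, 289 and 467, 218 and 542, and 27 and 144 in the same order, then 111 and 22 with only the rule's genes left out, 106 lower with TMM factors, and 40 higher for cells of 5000 UMIs or more. IR against control calls (49 and 62) became 222 and 211 at 20 UMIs, 3 and 16 at 200, 156 and 100 with a mean over cells, 9 and 2 under 5000 UMIs, and 22 lower without cells under 10% of secretory UMIs. Shallow calls in control (537 and 810) became 1751 and 83 on CPM over all genes, 133 and 1545 with TMM factors, 2181 higher at 20 UMIs, and 65 and 365 at 200. In IR, 226 and 526 became 691 and 79, 67 and 1048, 970 higher, and 27 and 191.

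Crossings of 1 are listed only for named genes past 2-fold in the main setting. Genes with smaller main ratios, marker genes among them, could cross 1 without being listed. The listed ratios in control were Wfdc18 (0.997) and S100a10 (0.897) against acinar cells, Gm26825 (0.652) at 5000 UMIs or more, Hagh (1.01) under 5000, and Cd74 (0.559 with a mean over cells, 0.494 under 5000, 0.607 without cells under 10% of secretory UMIs, 0.595 without its top cell, 0.106 against acinar cells). In IR they were Tmem176a, Tmem176b and Cyr61 (each 0.862, a 0 put at 3 counts) and Uchl5 (1.29) against acinar cells, Gm26825 (0.126) at 5000 UMIs or more and Cyr61 (0.986) at a limit of 50%. For IR against control they were Igfbp5 (0.359) at 50%, Wfdc18 (1.79), Gadd45b (1.28) and Cxcl2 (3.98) under 5000 UMIs, and Gadd45b (1.02) without cells under 10% of secretory UMIs. The cause was not tested. Of the named-gene values under alternatives other than the count minimums, which cannot move a ratio, 234 of 362 in control, 270 of 363 in IR and 134 of 184 in IR against control moved by less than their counting interval. The alternatives that split by depth, leave out cells under 10% of secretory UMIs or a gene's top cell, and all shallow values, were chosen after seeing the data. Depth limits the shallow cells, whose low genes rest on a few UMIs.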
